A study of Mus musculus with 6 samples.

Results

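Keratin-associated proteins are the matrix of the hair shaft. The members described here are the genes whose symbol in the deposited table begins with Krtap and a number, which gave 58 of 57010 rows, in 27 subfamilies by the number before the hyphen. The table comes from skin of wild-type (WT) mice collected when a diabetic ulcer experiment ended. The 3 CST mice received CST in a gel on the skin, an abbreviation that the labels do not spell out, and the 3 Yoda1 mice received a gel with Yoda1, an agonist of the mechanosensitive ion channel Piezo1. All 6 mice were kept specific pathogen-free and were assigned to treatment at random. Strain, age, dose, hair cycle stage, and where the skin lay relative to the ulcer were not stated in the labels. Skin without an active agent was not analysed here. The labels also tag the samples as keratinocytes, while muscle and neutrophil genes were abundant in several libraries, so the values are read as those of whole skin.

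A hair grows from matrix cells at the base of the follicle, which stop dividing, fill with hair keratins and then with keratin-associated proteins, and die as they harden. The associated proteins embed the keratin filaments, and their cysteines form disulphide bonds with the keratins. They are grouped by composition into high-sulphur, ultra-high-sulphur and high glycine-tyrosine proteins. They are made late in shaft differentiation, during the growth phase of the hair cycle, so resting follicles make little of them.

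The composition of the coding sequence was computed for each member and gave 3 classes. Members with at least 30% cysteine codons were called ultra-high sulphur (21 genes), other members with at least 35% glycine and tyrosine codons high glycine-tyrosine (15 genes), and the remaining 21 protein-coding members high sulphur or other. The pseudogene Krtap19-9a was not classed. The coding starts of 4 abundant members show what separates the classes, and are printed 5′ to 3′ from GENCODE M21 on GRCm38. Capitals mark glycine and tyrosine codons in Krtap22-2 and Krtap6-5, and cysteine codons in Krtap17-1 (ultra-high sulphur) and Krtap3-2 (high sulphur or other).
Krtap22-2, chr16:89010619-89010708, minus strand: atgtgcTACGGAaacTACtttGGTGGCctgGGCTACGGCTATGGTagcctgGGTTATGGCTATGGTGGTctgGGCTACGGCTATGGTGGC
Krtap6-5, chr16:89047754-89047843, minus strand: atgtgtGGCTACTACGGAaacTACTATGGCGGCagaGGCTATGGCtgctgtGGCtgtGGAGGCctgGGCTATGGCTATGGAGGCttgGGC
Krtap17-1, chr11:99993850-99993939, minus strand: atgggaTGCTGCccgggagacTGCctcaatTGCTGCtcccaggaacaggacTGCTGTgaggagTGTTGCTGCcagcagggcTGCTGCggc
Krtap3-2, chr11:99556711-99556800, minus strand: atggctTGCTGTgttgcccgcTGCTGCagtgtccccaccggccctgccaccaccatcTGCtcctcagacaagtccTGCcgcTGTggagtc
Of these 30 codons, 22 in Krtap22-2 and 21 in Krtap6-5 coded for glycine or tyrosine. Cysteine took 12 of 30 codons in Krtap17-1 and 7 of 30 in Krtap3-2.

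Values are FPKM, that is fragments per kilobase of transcript scaled to the mapped depth, as deposited by the authors. Depth recovered from the values lay between 23791352 and 29620526 reads per library, so that a single read over 1 kb of transcript adds 0.0338 to 0.042 FPKM. The members are short, with a median length of 786 bases, and most held few reads, so read numbers are given beside the low values. In bulk skin, fewer cells of a type and less RNA per cell cannot be told apart.

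Krtap transcripts were detected in the skin of every CST mouse, and Krtap3-2 was the only member to reach 1 FPKM in Yoda1 skin. At 1 FPKM or more, 13, 19 and 26 of the 58 members were detected in CST mice 1, 2 and 3, against 1, 1 and 0 in Yoda1 mice 1, 2 and 3. As shares these were 22.4%, 32.8% and 44.8% of the members in CST skin and 1.7%, 1.7% and 0.0% in Yoda1 skin. Over the whole table the share of genes at 1 FPKM or more lay between 24.4% and 25.7% in all 6 libraries, CST and Yoda1 alike. With any read at all, 39, 38 and 36 members were above 0 in CST mice 1 to 3, against 9, 22 and 9 in Yoda1 mice 1 to 3. These were 67.2%, 65.5% and 62.1% of the members in CST skin and 15.5%, 37.9% and 15.5% in Yoda1 skin, where 39.9% to 44.2% of all genes were above 0 in a library. Yoda1 mouse 2 thus had traces of many members, close to the share over all its genes (43.1%). In all, 53 members were above 0 somewhere, and Krtap13, Krtap27-1, Krtap31-1, Krtap31-2 and Krtap9-5 were listed at 0 in each library.

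The summed level of the 58 members was 59.6, 59.3 and 90.9 FPKM in CST mice 1 to 3 and 12.0, 9.38 and 1.24 FPKM in Yoda1 mice 1 to 3. The groups did not overlap, and the means were 69.9 ± 18.1 and 7.54 ± 5.61 (SD, n = 3 each), a ratio of 9.27. A single gene made up most of the Yoda1 sum in mice 1 and 2, since Krtap3-2 gave 93.3%, 71.6% and 45.9% of it in Yoda1 mice 1 to 3, against 8.09%, 13.0% and 14.3% in CST mice 1 to 3. Without Krtap3-2 the sums were 54.8, 51.6 and 77.8 FPKM in CST skin and 0.807, 2.66 and 0.673 FPKM in Yoda1 skin.

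**Figure D1:**
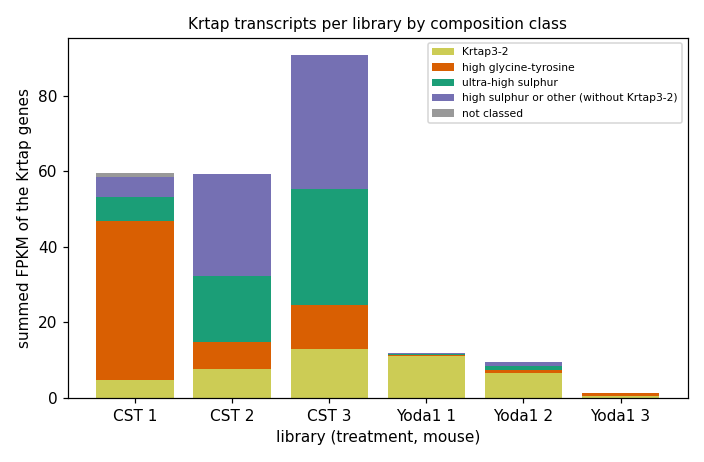
Summed FPKM of the Krtap genes (vertical axis) in each library (horizontal axis), stacked by composition class with Krtap3-2 apart. The CST bars reach 59.6, 59.3 and 90.9 FPKM and the Yoda1 bars 12.0, 9.38 and 1.24 FPKM, and the high glycine-tyrosine part is tallest in CST mouse 1.

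No single member passed the test between treatments. In limma's fit on log2(FPKM + 1) over the 14588 genes whose mean over the libraries reached 1 FPKM, 0 genes were called at an adjusted p under 0.05 (0% of all tested), and 584 had an unadjusted p under 0.05. Only 8 members reached the filter, and their number carries no weight, because a gene at or near 0 in Yoda1 skin could reach it only by being high in CST skin. Without the filter, 23 of the 58 members had an unadjusted p under 0.05 and were higher in CST, beside 3.30% of all 30697 genes above 0. The smallest adjusted p of a member in that fit was 0.354 (limma), so again 0 were called (0% of all genes). It belonged to Krtap9-1, an ultra-high-sulphur gene named for this value. Krtap9-1 measured 0.755, 0.761 and 1.06 FPKM in CST skin and 0, 0.0327 and 0 FPKM in Yoda1 skin, from 73 reads against 1 read. Of its transcript stretches of 50 bases, 36.6% also occur in other genes (Gm11559, Gm11567 and Gm11568), so its read numbers are uncertain. Over all members, which no filter had chosen, 20 had all 3 CST values above all 3 Yoda1 values, beside 4.93% of genes above 0. The reverse held for 0 members, beside 2.04% of genes. Without CST mouse 1, 32 members had all CST values above all Yoda1 values, beside 12.7% of genes. The mean was higher in CST skin for all 53 members above 0, but several, such as Krtap14 and Krtap15, held 1 read in all. The share of all genes with a higher CST mean was not computed. Without the filter the median log2 change was 0.73 for members and 0 for all genes.

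Krtap3-2 was the most abundant member over the 6 libraries and the 1 member that reached 1 FPKM in a Yoda1 mouse. This high-sulphur gene measured 4.83, 7.74 and 13.0 FPKM in CST mice 1 to 3 and 11.2, 6.72 and 0.571 FPKM in Yoda1 mice 1 to 3, from 120, 221 and 390 and from 342, 203 and 14 reads. The groups overlapped, and Yoda1 mouse 1 held more than CST mice 1 and 2. The log2 change (the CST mean less the Yoda1 mean of log2(FPKM + 1), as in all changes given here) was 0.76 with an SE of 0.72 (limma, adjusted p = 1.0), and it became -0.12 without Yoda1 mouse 3 and 1.36 without Yoda1 mouse 1.

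Its neighbours on chromosome 11 did not share this pattern. Krtap3-1, of the same high-sulphur subfamily, measured 2.06, 5.08 and 9.35 FPKM in CST skin and 0, 0.169 and 0 FPKM in Yoda1 skin, where 3 reads were found in all. Its groups lay apart, with a log2 change of 2.45 with an SE of 0.42 (limma, adjusted p = 0.521). Krtap3-3 measured 0.338, 3.43 and 3.74 FPKM in CST skin and 0.0917, 0.278 and 0 FPKM in Yoda1 skin, with a log2 change of 1.44. In Yoda1 mouse 1, 342 reads were assigned to Krtap3-2, 2 to Krtap3-3 and 0 to Krtap3-1. Whether the change of Krtap3-2 differed from that of its neighbours was not tested.

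The 3 genes are close copies, which bears on how reads are divided between them. The coding sequences of Krtap3-2 and Krtap3-3 were identical over their whole length and each was 82.9% identical to that of Krtap3-1. Of the transcript stretches of 50 bases, 28.9% in Krtap3-2 and 41.3% in Krtap3-3 occurred in another gene as well, so reads from the coding part cannot be assigned to one of these 2 from sequence alone. The sequences before their starts are less alike, with 54.1% identity between Krtap3-1 and Krtap3-2 and 60.8% between Krtap3-2 and Krtap3-3. The 100 bases before each start are printed 5′ to 3′ from RefSeq on GRCm38.p6, beside those of 2 high glycine-tyrosine genes described next, with TATAAA in capitals where it starts 40 to 20 bases before the start.
Krtap3-1, chr11:99566631-99566730, minus strand: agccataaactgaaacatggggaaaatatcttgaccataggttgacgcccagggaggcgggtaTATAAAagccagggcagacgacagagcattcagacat
Krtap3-2, chr11:99556854-99556953, minus strand: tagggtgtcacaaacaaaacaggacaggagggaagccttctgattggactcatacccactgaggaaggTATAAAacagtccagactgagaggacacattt
Krtap3-3, chr11:99550864-99550963, minus strand: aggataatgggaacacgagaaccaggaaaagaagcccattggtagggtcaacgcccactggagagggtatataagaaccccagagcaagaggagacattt
Krtap22-2, chr16:89010760-89010859, minus strand: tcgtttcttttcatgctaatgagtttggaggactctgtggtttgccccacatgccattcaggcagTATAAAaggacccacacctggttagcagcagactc
Krtap8-1, chr16:89487953-89488052, minus strand: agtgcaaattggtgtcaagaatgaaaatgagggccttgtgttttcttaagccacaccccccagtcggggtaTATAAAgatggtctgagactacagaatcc
RefSeq start windows were matched for 51 of the 58 members. TATAAA, searched on the gene's strand, lay 40 to 20 bases before the start in 31 of them (60.8%), against 2.0% of all 32851 windows. CTTTGAA or CTTTGTT, the letters bound by LEF1 and TCF factors, was found on either strand of the window (250 bases before to 50 after the start) in 14 of 51 (27.5%), against 10.6% of all windows. By class, 10 of 19 high-sulphur or other, 2 of 15 high glycine-tyrosine and 2 of 17 ultra-high-sulphur windows held it. These matches describe the letters only.

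The high glycine-tyrosine genes were highest in CST mouse 1, where they gave most of the Krtap sum. Their summed level was 41.9, 7.13 and 11.5 FPKM in CST mice 1 to 3, which was 70.3%, 12.0% and 12.7% of the Krtap total, and 0.235, 0.545 and 0.673 FPKM in Yoda1 mice 1 to 3. In Yoda1 skin this was 1.96%, 5.81% and 54.1% of much smaller totals, the last of 1.24 FPKM. Of the 15 members, 14 were highest in CST mouse 1 among the CST mice and only Krtap8-1 was highest in CST mouse 3.

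Krtap22-2 was the most abundant of them. It measured 15.5, 2.77 and 5.0 FPKM in CST skin (136, 28 and 53 reads) and had no read in any Yoda1 mouse. Against the 3 reads over the Yoda1 group that a count of 0 allows, its pooled CST level was 74.0-fold higher. Without CST mouse 1 the ratio was 39.4-fold. These ratios allow for counting error in the Yoda1 reads only, not in the CST reads or between mice, so they are not strict lower bounds. Krtap22-2 had a log2 change of 2.85 with an SE of 0.49 (limma, adjusted p = 0.521), and it was the 1 member of the class at 1 FPKM or more in all 3 CST mice. Fitted changes of members near 0 in Yoda1 skin depend on the pseudocount. With 0.1 in place of 1 they were 5.93 for Krtap22-2, 5.09 for Krtap3-1 and 4.78 for Krtap7-1, and limma-voom on the recovered reads gave 6.85, 6.35 and 5.81.

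The Krtap6 genes, a subfamily of short glycine- and tyrosine-rich proteins, were almost confined to CST mouse 1. Their 4 members summed to 13.8, 0.285 and 0.131 FPKM in CST mice 1 to 3. Krtap6-5 measured 6.97, 0.0607 and 0 FPKM in CST skin and 0, 0 and 0.0706 FPKM in Yoda1 skin, from 100, 1 and 0 and from 0, 0 and 1 reads. Its log2 change of 0.99 with an SE of 0.73 (limma, adjusted p = 1.0) came from a single mouse, and the groups overlapped. The Krtap19 genes summed to 9.12 FPKM in CST mouse 1 and were listed at 0 in CST mice 2 and 3. The members Krtap19-5, Krtap19-9b and Krtap20-2, chosen after their values were seen, measured 3.55, 3.59 and 3.34 FPKM in CST mouse 1, and each was listed at 0 in CST mice 2 and 3.

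Traces of the class were also found in Yoda1 mouse 3. Without Krtap8-1, 14, 4 and 2 of the 14 other members had a read in CST mice 1 to 3, and 0, 1 and 7 had one in Yoda1 mice 1 to 3. Those 7 members of Yoda1 mouse 3, among them all 4 Krtap6 genes, held 1 read each. Single reads of this kind are near the limit of what the depth can show.

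Krtap8-1 was highest in CST mouse 3, like most members of the other classes, although its composition is glycine- and tyrosine-rich. It measured 0.795, 3.96 and 6.42 FPKM in CST skin and 0.235, 0.476 and 0.146 FPKM in Yoda1 skin, so that every CST mouse lay above every Yoda1 mouse, with a log2 change of 1.66 with an SE of 0.48 (limma, adjusted p = 0.627). It was the only member with reads in all 6 libraries apart from Krtap3-2. Krtap7-1, commonly placed among the glycine-tyrosine genes but with 29.9% such codons and so under the limit used here, had the same order of the CST mice. It measured 0.868, 7.67 and 8.76 FPKM in CST skin and 0.109, 0.0549 and 0 FPKM in Yoda1 skin, with a log2 change of 2.36 with an SE of 0.59 (limma, adjusted p = 0.561).

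**Figure D2:**
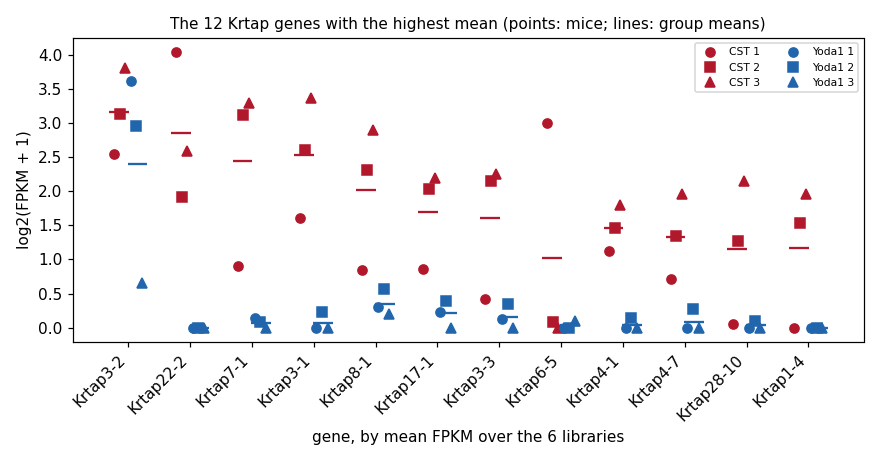
Level of the 12 Krtap genes with the highest mean, on a log2(FPKM + 1) axis, with 1 point per mouse and lines at the group means on that scale. Krtap3-2 is the gene at left whose Yoda1 points lie among the CST points, and Krtap22-2 and Krtap6-5 have CST mouse 1 as their highest point.

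The ultra-high-sulphur genes were lowest in CST mouse 1 within the CST group and highest in CST mouse 3. Their summed level was 6.37, 17.5 and 30.9 FPKM in CST mice 1 to 3 and 0.241, 1.16 and 0 FPKM in Yoda1 mice 1 to 3. Of the 20 members above 0, 18 were highest in CST mouse 3, 2 in CST mouse 2 and 0 in CST mouse 1. Krtap17-1, the highest of them, measured 0.817, 3.08 and 3.57 FPKM in CST skin and 0.177, 0.314 and 0 FPKM in Yoda1 skin, with a log2 change of 1.49 with an SE of 0.37 (limma, adjusted p = 0.561). All 8 Krtap4 genes, a cysteine-rich subfamily of closely related copies, were highest in CST mouse 3, and their sum was 4.29, 8.42 and 14.6 FPKM in CST skin and 0.0638, 0.618 and 0 FPKM in Yoda1 skin. Krtap4-1 measured 1.18, 1.74 and 2.48 FPKM in CST skin and 0, 0.101 and 0 FPKM in Yoda1 skin. Krtap4-7 measured 0.632, 1.54 and 2.87 FPKM in CST skin and 0, 0.208 and 0 FPKM in Yoda1 skin. The groups lay apart in both, and neither gene reached the filter of the test.

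Some ultra-high-sulphur genes were at or near 0 in CST mouse 1 as well as in Yoda1 skin. Krtap28-10, on chromosome 1, measured 0.0433, 1.40 and 3.45 FPKM in CST skin and 0, 0.0713 and 0 FPKM in Yoda1 skin. The 5 Krtap5 genes of chromosome 7 summed to 0, 0.742 and 1.90 FPKM in CST skin, and the 2 Krtap10 genes of chromosome 10 to 0, 1.85 and 3.01 FPKM. Their neighbour Krtap12-1, of the high-sulphur or other class, measured 0, 0.550 and 0.997 FPKM in CST skin and had no read in Yoda1 skin. These 3 chromosome 10 members lie within Tspear, and Krtap10-4 and Krtap10-10 also overlap Gm2696. Whether the counting used strand is not known from the labels, so these values are uncertain.

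The high-sulphur and other genes summed to 10.1, 34.7 and 48.4 FPKM in CST skin and 11.5, 7.68 and 0.571 FPKM in Yoda1 skin, the Yoda1 sums being mostly Krtap3-2. Of the 17 members above 0, 12 were highest in CST mouse 3, 3 in CST mouse 2 and 2 in CST mouse 1. Krtap1-4 measured 0, 1.89 and 2.90 FPKM in CST skin (0, 31 and 50 reads) and had no read in any Yoda1 mouse. Krtap1-5, named after its values were seen, was more even, with 0.996, 1.21 and 0.860 FPKM in CST skin and 0, 0.164 and 0 FPKM in Yoda1 skin.

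**Figure D3:**
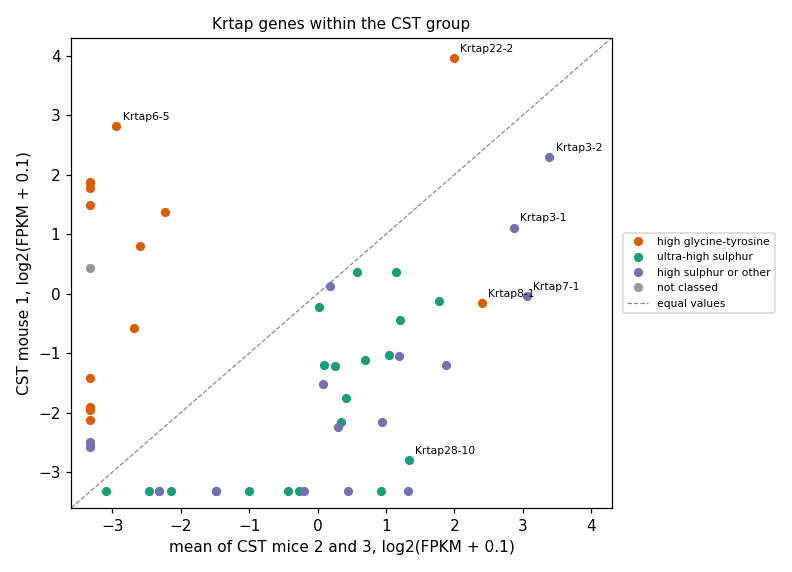
Krtap genes above 0 in CST skin, with the level in CST mouse 1 (vertical axis) against the mean of CST mice 2 and 3 (horizontal axis), both as log2(FPKM + 0.1), coloured by class. High glycine-tyrosine genes other than Krtap8-1 lie above the dashed line of equal values, and all ultra-high-sulphur genes lie below it.

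The order of the CST mice followed position on the chromosome as well as composition. On chromosome 16, which holds 25 members, the 17 members from Krtap14 to Krtap6-2 (GRCm38 chr16:88818667-89420111) were all highest in CST mouse 1. The 9 other genes above 0 in that interval were highest in CST mouse 1 too. Several of them are sequence relatives of members. Gm10228, Gm10229 and 1110025L11Rik share stretches of 50 bases with Krtap6-1 and Krtap6-5, and Gm10061 and Gm34396 with Krtap20-2. These neighbours therefore cannot separate position from class. The members on either side, Krtap24-1, Krtap26-1 and Krtap13-1 before it and Krtap8-1, Krtap7-1 and Krtap11-1 after it, were highest in CST mouse 2 or 3. The interval was drawn after the values were seen, and it holds 14 of the 15 high glycine-tyrosine genes, so position and class largely coincide. The 2 high-sulphur or other members inside it, Krtap14 and Krtap15, held 1 read each, and Krtap8-1 is the high glycine-tyrosine gene outside it. Several members hold 1 or 2 reads only, and neighbouring copies can share reads. On chromosome 11, 19 of the 20 members above 0 were highest in CST mouse 3, 1 in CST mouse 2 and 0 in CST mouse 1. Of the 18 other genes above 0 between the outermost members there, 13 were highest in CST mouse 3, 3 in CST mouse 2 and 2 in CST mouse 1. Several of them, such as Gm11555 and Gm11563, share stretches of 50 bases with Krtap4 genes. The share of all genes highest in each CST mouse was not computed, here or for the classes.

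**Figure D4:**
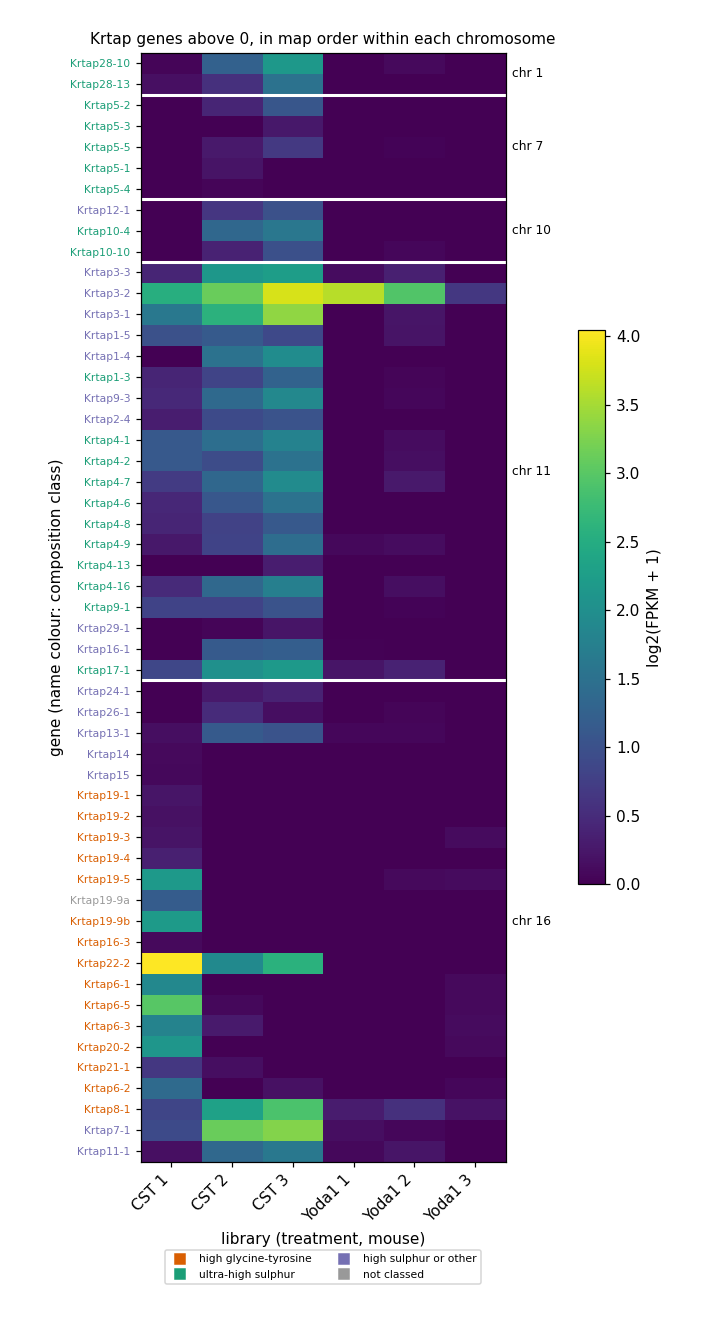
Level of the 53 Krtap genes above 0 as log2(FPKM + 1) (colour) in the 6 libraries (columns), with genes (rows) in map order within each chromosome and names coloured by class. The left column is bright along the middle of the chromosome 16 block, where CST mice 2 and 3 are dark except at Krtap22-2, and Krtap3-2 is the bright row of Yoda1 mice 1 and 2.

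By subfamily, detection at 1 FPKM or more was mixed in the same way. All 4 Krtap6 genes passed 1 FPKM in CST mouse 1 and 0 in CST mice 2 and 3, and for Krtap19 the numbers were 3, 0 and 0 of 7. For Krtap4 they were 2, 4 and 7 of 8, for Krtap1 they were 0, 2 and 2 of 3, and for Krtap9 they were 0, 1 and 2 of 3. Krtap3 had 2, 3 and 3 of 3 in CST mice 1 to 3 and 1, 1 and 0 of 3 in Yoda1 mice 1 to 3, through Krtap3-2 alone. In no other subfamily did a member reach 1 FPKM in Yoda1 skin. Krtap12, Krtap14, Krtap15, Krtap21, Krtap24, Krtap26 and Krtap29, with 1 member each, stayed below 1 FPKM in each library but above 0 in at least 1.

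In 24 members all 3 Yoda1 libraries were listed at 0 while CST skin had reads, and the share of all genes for this was not computed. Of these members 16 held over 3 reads in CST skin, beside 1.71% of genes above 0. The reverse, 0 in CST skin with any read in Yoda1 skin, held for 0 members. With over 3 reads required in Yoda1 skin, it held for 0.915% of genes above 0. For the 16 members the ratio of the pooled CST level to 3 Yoda1 reads ran from 1.7 for the pseudogene Krtap19-9a to 74.0 for Krtap22-2. It leaves out counting error in the CST reads, so it is no lower bound where these are few. Krtap19-9a held 5 reads, all in CST mouse 1, with a 95% counting interval of 1.62 to 11.7 reads.

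Hair shaft keratins and inner root sheath genes, summed by list, were highest in CST mouse 3, as the ultra-high-sulphur genes were, and 0 genes of each follicle list were called. The 15 hair shaft keratins with a row, the partners of the Krtap proteins in the shaft, summed to 8.88, 29.2 and 94.0 FPKM in CST skin and 3.97, 8.59 and 3.16 FPKM in Yoda1 skin. Krt35, an early keratin of the matrix and cortex, measured 0.0806, 7.28 and 57.4 FPKM in CST skin and 0.738, 2.97 and 0 FPKM in Yoda1 skin, so its groups overlapped. Krt32, a cuticle keratin, measured 2.17, 3.52 and 9.78 FPKM in CST skin and 1.25, 2.49 and 0.496 FPKM in Yoda1 skin. Krt84, a hair keratin also found in tongue and nail, measured 3.10, 1.71 and 2.23 FPKM in CST skin and 0.880, 0.958 and 2.22 FPKM in Yoda1 skin.

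The inner root sheath, the layer that moulds the growing shaft, was low in CST mouse 1, where the high glycine-tyrosine genes were high. Its 9 marker genes summed to 2.67, 177.6 and 576.9 FPKM in CST skin and 18.5, 25.8 and 1.78 FPKM in Yoda1 skin. Krt71 measured 0.209, 56.1 and 167.5 FPKM in CST skin and 6.07, 5.35 and 0.0577 FPKM in Yoda1 skin. Krt25 measured 0.125, 47.0 and 148.1 FPKM in CST skin and 4.16, 7.08 and 0 FPKM in Yoda1 skin, and Krt27 0.696, 32.8 and 83.8 against 3.16, 2.38 and 0.163 FPKM. CST mouse 1 thus lay below Yoda1 mice 1 and 2 for these 3 genes, while its Krtap sum lay above that of every Yoda1 mouse.

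None of the 12 regulators of shaft differentiation passed the test. Their sum, 202.2, 246.7 and 388.9 FPKM in CST skin and 180.6, 161.4 and 258.9 FPKM in Yoda1 skin, was mostly Vdr, Notch1 and Ovol1, with log2 changes of 0.21, 0.16 and 0.58. Hoxc13, a homeobox factor of hair keratin and Krtap genes, measured 3.61, 2.96 and 14.9 FPKM in CST skin and 1.78, 1.15 and 1.84 FPKM in Yoda1 skin, with a log2 change of 1.36 with an SE of 0.50 (limma, adjusted p = 0.940). Foxn1, the factor missing in nude mice, measured 3.52, 4.45 and 4.83 FPKM in CST skin and 2.18, 2.27 and 3.71 FPKM in Yoda1 skin. Msx2, a homeobox factor of the matrix, measured 1.28, 3.59 and 17.2 FPKM in CST skin and 1.16, 1.49 and 0.690 FPKM in Yoda1 skin. Lef1, a partner of beta-catenin in the matrix, measured 0.425, 1.86 and 10.2 FPKM in CST skin and 1.04, 1.23 and 0.172 FPKM in Yoda1 skin. CST mouse 3 was the highest library for each of the 4 last-named genes.

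Other follicle lists did not all have this order. The 6 other hair shaft genes summed to 19.7, 26.7 and 52.0 FPKM in CST skin and 16.8, 12.0 and 36.8 FPKM in Yoda1 skin. Of its most abundant genes, S100a3, a calcium-binding protein of the hair cuticle, measured 0.505, 7.51 and 26.8 FPKM in CST skin and 1.14, 2.05 and 0.433 FPKM in Yoda1 skin. The transglutaminase gene Tgm3 was highest in Yoda1 mouse 3, at 31.5 FPKM, and Hephl1 had a log2 change of 0.16. The 4 hair matrix signals summed to 24.0, 34.5 and 43.1 FPKM in CST skin and 21.2, 27.9 and 45.2 FPKM in Yoda1 skin, highest in Yoda1 mouse 3 through Wnt10a (44.7 FPKM there). Wnt10b and Shh were highest in CST mouse 3, at 4.43 and 3.99 FPKM. The 7 outer root sheath and bulge genes summed to 2209.3, 2238.7 and 2505.1 FPKM in CST skin and 2069.3, 2091.8 and 3266.3 FPKM in Yoda1 skin, again highest in Yoda1 mouse 3. Their most abundant genes Krt17, Krt15 and Cd34 had log2 changes of -0.20, 0.75 and -0.32.

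**Figure D5:**
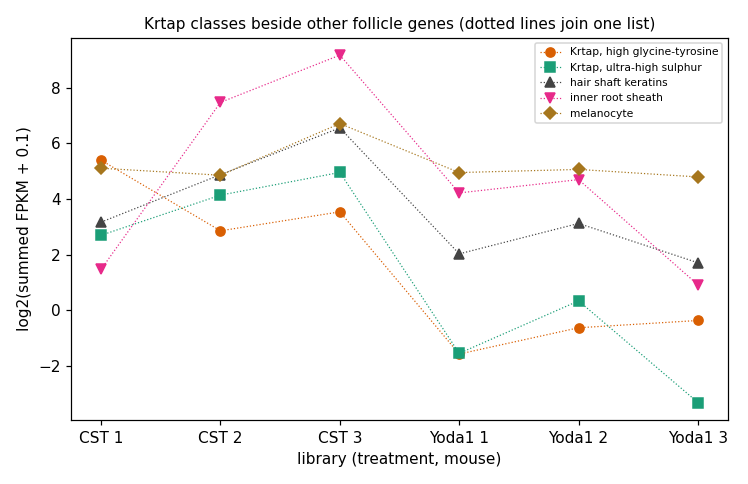
Summed level of 2 Krtap classes and 3 lists of follicle genes in each library (horizontal axis), as log2(summed FPKM + 0.1), with dotted lines that only join the points of a list. In CST mouse 1 the high glycine-tyrosine class is at its highest (41.9 FPKM) while the inner root sheath genes are at 2.67 FPKM.

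The make-up of the libraries differed beyond the follicle. The 10 skeletal muscle markers summed to 12593.8, 6201.2 and 10760 FPKM in CST skin and 100.8, 4446.4 and 537.7 FPKM in Yoda1 skin. Each of the 10 had all CST values above all Yoda1 values, beside 4.93% of genes above 0. The 7 neutrophil markers summed to 11046.8, 1768.1 and 1722.9 FPKM in CST skin and 1552, 682.5 and 4097.5 FPKM in Yoda1 skin, with CST mouse 1 the highest. The 10 melanocyte markers, pigment cells of the hair bulb among their sources, summed to 34.3, 28.8 and 104.6 FPKM in CST skin and 30.8, 33.3 and 27.6 FPKM in Yoda1 skin. Of these sums, only that of muscle was higher in every CST mouse than in every Yoda1 mouse. The epidermal lists had no such separation. The 8 interfollicular epidermis markers summed to 13988.6, 16682 and 21438.4 FPKM in CST skin and 11287.7, 12647.7 and 25141.4 FPKM in Yoda1 skin. The 3 wound keratins summed to 7676.5, 5022.7 and 5273.4 FPKM in CST skin and 4324.5, 2998.3 and 12400.4 FPKM in Yoda1 skin, and both lists were highest in Yoda1 mouse 3. The 5 sebaceous gland markers summed to 1540.6, 1380.5 and 1828 FPKM in CST skin and 3146.2, 1359.4 and 1055.8 FPKM in Yoda1 skin. No marker of these 6 lists was at 0 in all libraries, and 0 were called. Their part in the Krtap result was not tested.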

How the data were processed

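RNA of 6 skin samples, 3 CST and 3 Yoda1, was sequenced, and groups follow the sample titles. The authors deposited FPKM values per gene; the submitters' processing notes name GRCm38 and mm10, and neither aligner nor counting tool nor strandedness is given in the sources used. How reads shared by near-identical Krtap copies were assigned is therefore unknown, and values of single copies are uncertain. Mice are labelled as separate animals.

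Depths and whole reads were recovered from the steps of the values (99.99% of 30697 genes gave whole reads within 0.001). Recovered reads summed to 100.65% to 100.92% of the depth, so lengths of a few genes are uncertain; those of the members above 0 equalled the mean GENCODE M21 transcript length. Ratios against a Yoda1 count of 0 allow for counting error in the Yoda1 reads only. Neither these ratios nor the read intervals cover differences between mice. Deposited starts equalled GRCm38 starts in 2.81% of genes, so positions are those of GENCODE M21, matched by identifier.

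The test was limma 3.58.1 (R 4.3.3, lmFit, eBayes with trend) on log2(FPKM + 1) with no covariate, two-sided, over genes whose mean reached 1 FPKM. It was Benjamini-Hochberg adjusted with a threshold of 0.05. A check on simulated reads placed its changes in abundant genes only, so it does not show how the test treats members with few reads. The pseudocount understates changes of low genes. Sums and detection (1 FPKM) have no test. With 3 against 3 mice a permutation test cannot fall below 0.1, so none was used.

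Genes named are the 12 members with the highest mean, the 5 with the smallest p in the test, the 3 highest of each follicle list, and Hoxc13, Foxn1, Msx2 and Lef1; other members were chosen after their values were seen, and lists of other cell types are given by their sums. Members and lists were chosen with earlier results of these data known. Composition classes and motifs came from GENCODE and RefSeq sequences; coding starts are shown, and protein sequences were not used here. Alternatives were another pseudocount and filter, no filter, other scalings, a count-based fit on the recovered reads, a replicate block, and leaving out each mouse.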

Additional observations from a re-analysis of the deposited data

How the results depend on the processing

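Of 101 alternative values for the 12 most abundant members, 100 kept their direction and did not pass the threshold, and 1 reversed: the change of Krtap3-2 came to -0.12 without Yoda1 mouse 3, and to 1.36 without Yoda1 mouse 1. The smallest adjusted p among them was 0.0807 (limma), for Krtap3-1. The filter was applied again with each mouse left out, so members under it have no value there. Krtap6-5 thus has none without CST mouse 1, and Krtap1-4 and Krtap28-10 had 1 alternative each. The direction in those missing fits is not known. The change of Krtap22-2 ran from 2.25 without CST mouse 1 to 6.85 in the count-based fit. Its ratio to 3 Yoda1 reads, recomputed after seeing the data, ran from 39.4 to 98.0 when each CST mouse was left out. Leaving out each mouse in turn gave 0 to 136 genes called over the whole table (136 without Yoda1 mouse 2, 8 without CST mouse 2) and 0 to 10 among the follicle and other lists (10 without Yoda1 mouse 2); 0 Krtap members were called in each case. The labels do not say whether mouse numbers pair the samples. The correlation of deviations was -0.077, 0.208 and -0.197 for mice 1, 2 and 3. Between mice of unlike numbers it ran from -0.343 to 0.344, so these values cannot decide it. With a replicate block 0 genes were called. The number of members with all CST values above all Yoda1 values, an alternative chosen after seeing the data, ran from 20 to 32 when each mouse was left out.

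Detection moved with its threshold. Above 0, at 0.1 and at 10 FPKM, the numbers were 39, 35 and 1 in CST mouse 1 and 38, 35 and 0 in CST mouse 2, and 1 at 10 FPKM in CST mouse 3. Above 0 and at 0.1 FPKM they were 9 and 4 in Yoda1 mouse 1, 22 and 11 in Yoda1 mouse 2, and 9 and 2 in Yoda1 mouse 3. At 10 FPKM they were 1, 0 and 0 in Yoda1 mice 1 to 3, so the groups hardly differed at that level. The CST minus Yoda1 difference of the summed level, 62.4 FPKM, was 78.6 when every library's FPKM were rescaled to one common, larger sum, which is a change of unit, since the CST to Yoda1 ratio was 9.27 and 9.19 on the respective scales. Depth limits the low members, since 1 read on 1 kb is worth up to 0.042 FPKM. The cause of the shifts with left-out mice was not tested.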
